A study of Homo sapiens with 9 samples.

Results

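The genes described here encode the proteasome, its activators and the chaperones that assemble it. They were taken as every row of the deposited expression table whose symbol begins with PSM, then a letter from A to G and a number, leaving out PSMB8 and PSMB9. The rule found 43 genes of 46846 features, of which 25854 carry a symbol. They comprise 8 PSMA and 9 PSMB genes (core particle), 5 PSMC genes (ATPases), 14 PSMD genes (non-ATPase subunits of the lid and base, with base chaperones), 3 PSME or PSMF genes (activators and an inhibitor) and 4 PSMG genes (core assembly chaperones). PSMC4, PSME1 and PSME2 were not analysed here. PSMA8, a testis form of an alpha subunit, and PSMB11, the beta subunit of the thymus, were at 0 reads in all 9 libraries, where 3 reads are the upper limit that a count of 0 allows. The other 41 genes passed the filter on low values (a mean of at least 10) and were tested.

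The proteasome is the barrel-shaped protease that degrades most ubiquitin-tagged proteins. Rings of alpha subunits form the gate of its core, and rings of beta subunits hold the proteolytic sites, which belong to PSMB5, PSMB6 and PSMB7. A regulatory particle binds ubiquitin chains, removes them and unfolds the substrate with a ring of ATPases, and cells can raise many of these genes together through the transcription factor NFE2L1.

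The measurements are 9 libraries of polyadenylated RNA from MDA-MB-231, an established human cell line derived from triple-negative breast cancer. Cells of 3 libraries were given the vehicle DMSO, with a labelled time of 12 h. Cells of another 3 were given 3.3 µM indisulam for 12 h, a molecule that glues RBM39, a splicing factor, to the ligase receptor DCAF15, and cells of the last 3 were given 10 nM pladienolide B for 6 h, an inhibitor of the SF3b splicing complex. Pladienolide B and its shorter time cannot be told apart, and the labels name no separate cultures, so the p-values rest on a spread between libraries that may be technical. Values are read counts that the authors divided by 1 size factor per library, and fold changes (log2 FC, with SE) are on the log2(value + 1) scale.

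The libraries held 59312100 to 83910831 reads. After the authors' scaling, the total signal was 6.04e+07 to 6.16e+07 in DMSO, 6.29e+07 to 6.37e+07 with indisulam and 8.24e+07 to 8.75e+07 with pladienolide B. The share of mitochondrial reads was 8.27 to 9.14%, 9.76 to 10.1% and 13.7 to 14.0% in the same order. Of the receptors whose absence defines triple-negative cells, ESR1 and PGR had values of 2.04 or less in each library and ERBB2 had 5102 to 5977, while the mesenchymal marker VIM had 113029 to 194494. Of 6 luminal epithelium markers 5 had a mean of at least 10 (FOXA1 was 7.33 or less), and the summed level was 88147 to 95133 in DMSO, 84395 to 87737 with indisulam and 130551 to 142184 with pladienolide B. Most of this sum was the keratins KRT8 and KRT18, with 44748 to 48286 and 41498 to 45427 in DMSO. EPCAM, GATA3 and CDH1 had 988.6, 403.5 and 83.6 or less in DMSO. For leukocytes (3 of 4 markers with a mean of at least 10, CD3E at 3.66 or less) the sums were 280 to 322, 137 to 170 and 231 to 365. Most of these sums was 1 gene, CSF1R, with 252 to 287, 102 to 145 and 211 to 295. LYZ had 46.4 or less and PTPRC 26.1 or less in each library. For fibroblasts (2 of 3) they were 578 to 741, 411 to 537 and 303 to 372, and for endothelium (2 of 3) 54.0 to 75.4, 62.7 to 93.4 and 39.1 to 63.2. The part of the larger total, the mitochondrial share and these markers in the results was not tested. In bulk RNA, fewer cells of a type and less RNA per cell cannot be told apart.

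Promoters of 4 members are shown as examples of genes with different responses. PSMA2 had the largest rise of the core genes with pladienolide B, PSMC6 and PSMD5 fell against their classes, and PSMD14, the deubiquitinase, carries an ETS core and a CCAAT box. The sequences are from RefSeq (GRCh38.p14), from 250 bases before the gene's start to 20 after it. PSMA2 lies at chr7:42932155-42932424 on the minus strand, PSMC6 at chr14:52706950-52707219 on the plus strand, PSMD14 at chr2:161308175-161308444 on the plus strand and PSMD5 at chr9:120842903-120843172 on the minus strand. Capitals mark every match, on either strand, to 5 motifs: the ETS core CCGGAAG, the CCAAT box CCAAT, the antioxidant response element core TGACNNNGC, the centre of the NRF1/alpha-pal site GCATGCG and the TATA box TATAAA.
PSMA2: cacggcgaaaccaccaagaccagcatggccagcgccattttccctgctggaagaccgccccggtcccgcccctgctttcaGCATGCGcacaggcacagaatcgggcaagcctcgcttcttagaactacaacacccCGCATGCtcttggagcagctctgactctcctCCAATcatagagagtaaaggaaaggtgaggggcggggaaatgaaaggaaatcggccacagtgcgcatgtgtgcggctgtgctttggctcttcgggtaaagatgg
PSMC6: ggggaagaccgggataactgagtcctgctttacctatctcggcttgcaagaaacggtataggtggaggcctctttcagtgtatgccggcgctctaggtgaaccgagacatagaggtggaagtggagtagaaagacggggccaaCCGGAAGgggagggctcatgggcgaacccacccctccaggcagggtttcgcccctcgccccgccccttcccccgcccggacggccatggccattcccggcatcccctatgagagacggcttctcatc
PSMD14: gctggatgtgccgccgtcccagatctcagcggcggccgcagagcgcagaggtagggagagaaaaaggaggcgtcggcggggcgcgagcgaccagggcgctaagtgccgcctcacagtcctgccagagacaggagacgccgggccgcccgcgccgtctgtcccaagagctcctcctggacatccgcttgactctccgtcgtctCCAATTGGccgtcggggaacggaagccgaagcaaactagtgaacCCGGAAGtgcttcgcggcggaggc
PSMD5: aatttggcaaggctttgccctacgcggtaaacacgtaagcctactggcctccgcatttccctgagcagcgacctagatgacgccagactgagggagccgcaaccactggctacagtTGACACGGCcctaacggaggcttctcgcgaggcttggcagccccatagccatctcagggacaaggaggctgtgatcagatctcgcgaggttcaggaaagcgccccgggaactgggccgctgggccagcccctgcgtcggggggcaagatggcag

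Promoters of 37 members were matched by symbol, and 27305 promoters of the same length of 300 bases served for comparison. The ETS core, the site bound by the ETS family of transcription factors, was present in 13 of the 37 (35.1%) against 10.7% of all promoters. It was found in 1 of 13 core genes, 3 of 5 PSMC genes and 7 of 13 PSMD genes. The single core gene with it was PSMA8, which had no reads here. The CCAAT box, bound by the factor NF-Y, was present in 18 (48.6% against 35.7%), in 7 core, 3 PSMC and 6 PSMD genes. The antioxidant response element core, the kind of site that NFE2L1 and its relatives bind, was present in 9 members (24.3% against 13.6%), of which 5 were PSMD genes and 1, PSMB3, was a core gene. GCATGCG was present in 2 members, PSMA2 and PSMA4 (5.41% against 4.13%), and TATAAA in 5 (13.5% against 12.0%). In PSMD14 the ETS core begins 4 bases before the RefSeq start, and in PSMC6 it begins 107 bases before it. The deposited PSMD14 row begins at 161308038 on chromosome 2, so the window shown for this gene lies inside that row. Matches of the CCAAT box and of TATAAA can overlap their own reverse complements, as CCAAT and ATTGG do in PSMD14, and each motif was counted once per promoter. These are matches of letters and were not tested.

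With pladienolide B every tested gene of the core was higher than in DMSO under the authors' scaling. Over the 41 tested members, 32 rose and 4 fell at an adjusted p under 0.05, where 34.3% of the 16846 genes tested rose and 35.5% fell. The median log2 FC was 0.49 for the members and -0.01 for all genes tested. Groups without overlap were common, as the pladienolide B libraries were all above DMSO in 5972 of the 16846 genes tested and all below in 6119. All 7 tested PSMA genes and all 8 tested PSMB genes rose, by log2 FC of 0.38 to 0.83, with a median of 0.62. The PSMC and PSMD genes rose less as classes, with medians of 0.40 and 0.41, and each had 1 gene that fell.

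**Figure D1:**
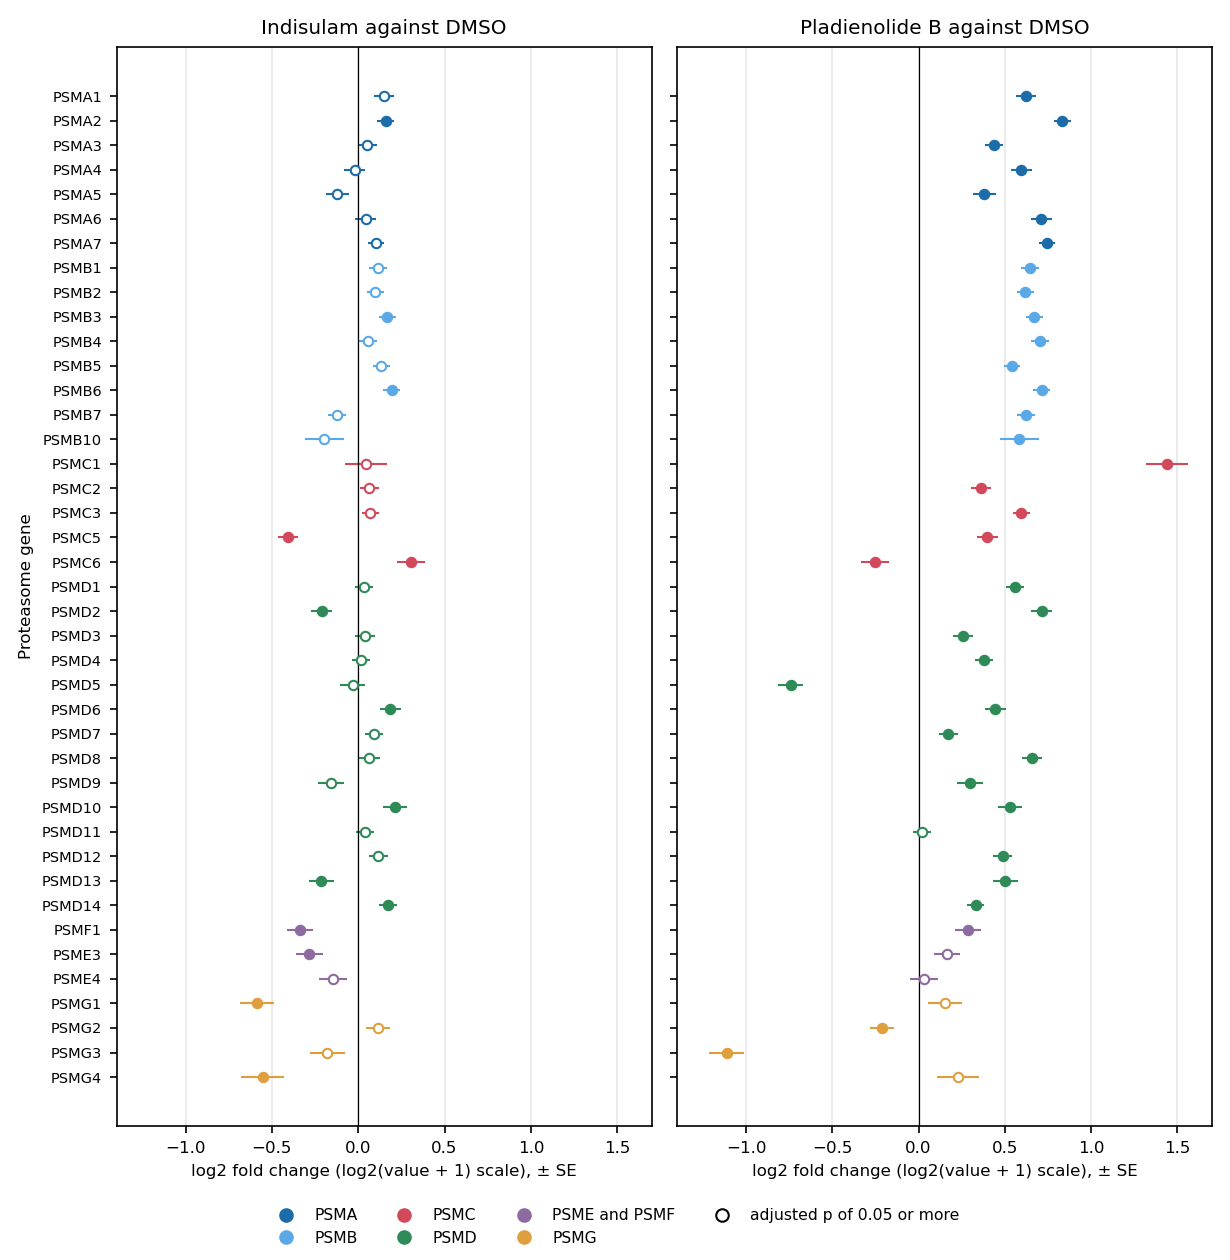
Log2 fold changes (horizontal axis, log2(value + 1) scale, bars ± SE) of the 41 tested proteasome genes (vertical axis), with colours for the gene classes, filled points for an adjusted p under 0.05 and open points for the rest. As deposited, all 15 core genes lie with pladienolide B between 0.38 and 0.83, while PSMC6, PSMD5, PSMG2 and PSMG3 lie below 0.

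Among the alpha subunits PSMA2 changed most. Its values were 9436, 9445 and 8957 in DMSO and 16665, 16784 and 16162 with pladienolide B. All 3 treated libraries were above all 3 of DMSO, and PSMA2 rose 1.78-fold (log2 FC 0.83, SE 0.05, adjusted p = 5.4e-09). The smallest alpha rises were those of PSMA5 (log2 FC 0.38) and PSMA3 (0.44).

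Each of the proteolytic subunits rose with pladienolide B. PSMB5, which carries the chymotrypsin-like site that bortezomib binds, had 11419, 11205 and 11314 in DMSO and 16607, 16891 and 15888 with pladienolide B, a rise of 1.46-fold (log2 FC 0.54, SE 0.05, adjusted p = 2.7e-07). PSMB6, the caspase-like subunit, had 12233, 12089 and 11805 in DMSO and 19347, 19965 and 19908 after the drug, a rise of 1.64-fold (log2 FC 0.71, SE 0.05, adjusted p = 2.1e-08). PSMB7, the trypsin-like subunit, went from 13644, 14185 and 13337 to 20497, 22271 and 20707, a rise of 1.54-fold (log2 FC 0.62, SE 0.05, adjusted p = 1.5e-07). The treated values of these 3 genes stood clear of DMSO in every library. PSMB10, the inducible counterpart of PSMB7 in the immunoproteasome, had 1074 to 1414 in DMSO and 1620 to 1853 with the drug and also rose (log2 FC 0.58, SE 0.11, adjusted p = 0.00039).

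The ATPases were split. PSMC3, with log2 FC 0.59, PSMC5, with 0.40, and PSMC2, with 0.36, rose with pladienolide B, as did the row named PSMC1, described apart further on. PSMC6, which sits in the same ATPase ring, had 5089, 4613 and 4952 in DMSO and 4378, 3533 and 4442 with pladienolide B. All treated libraries were below DMSO, by a small margin, and PSMC6 fell (log2 FC -0.25, SE 0.08, adjusted p = 0.013). Without DMSO replicate 1 that fall was no longer called (adjusted p = 0.053).

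Of the 14 PSMD genes 12 rose, PSMD5 fell and PSMD11 had a log2 FC of 0.02 (adjusted p = 0.76). PSMD2, the scaffold of the base that docks ubiquitin shuttles, had 68006, 71889 and 72427 in DMSO and 109733, 123662 and 115052 with pladienolide B. The groups did not overlap and PSMD2 rose 1.64-fold (log2 FC 0.71, SE 0.06, adjusted p = 1.6e-07). PSMD8, a lid subunit, rose by 0.66 and PSMD1, the other large scaffold of the base, by 0.56 on the log2 scale.

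PSMD4 and PSMD14 rose by less than PSMD2. PSMD4, a ubiquitin receptor, had 13517, 13731 and 13465 in DMSO and 16973, 18248 and 17816 with pladienolide B (log2 FC 0.38, SE 0.05, adjusted p = 1.8e-05). PSMD14, the deubiquitinase of the lid, had 9413, 9436 and 9691 in DMSO and 11537, 11968 and 12381 after the drug (log2 FC 0.33, SE 0.05, adjusted p = 5.1e-05). In both genes all treated values lay above DMSO.

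PSMD5, a chaperone of the base that is not part of the finished proteasome, moved the other way. Its values were 2559, 2557 and 2707 in DMSO and 1568, 1432 and 1687 with pladienolide B. It fell to 0.599 of DMSO (log2 FC -0.74, SE 0.07, adjusted p = 6.3e-07). The other base chaperones of the class rose, PSMD10 (gankyrin) from 3723, 3359 and 3274 to 5332, 4824 and 4771 (log2 FC 0.53, adjusted p = 1.1e-05) and PSMD9 by a log2 FC of 0.30 (adjusted p = 0.0026). With the same total per library PSMD9 was lower as well and PSMD10 was not called.

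No PSMG gene rose with pladienolide B, and 2 of the 4 fell. PSMG3, which helps to build the alpha ring, had 1746, 1748 and 1918 in DMSO and 703.4, 887.3 and 928.5 after the drug, the largest fall of the 41 genes (0.466 of DMSO, log2 FC -1.11, SE 0.10, adjusted p = 3.1e-07). PSMG2, the partner of PSMG1 in another core chaperone, fell by 0.21 on the log2 scale (adjusted p = 0.014). PSMG2 lost that call without DMSO replicate 2, without pladienolide B replicate 3 and with quantile normalisation (adjusted p = 0.17 by limma). PSMG1 and PSMG4 had log2 FC of 0.15 and 0.23 and did not pass the test.

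Outside the proteasome proper, PSMF1, an inhibitor of the core in the test tube, had 4978, 4994 and 4822 in DMSO and 5763, 6512 and 5780 with pladienolide B (log2 FC 0.29, SE 0.08, adjusted p = 0.0039). PSME3 and PSME4, activators of the nuclear proteasome, had log2 FC of 0.17 and 0.03 and did not pass the test.

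**Figure D2:**
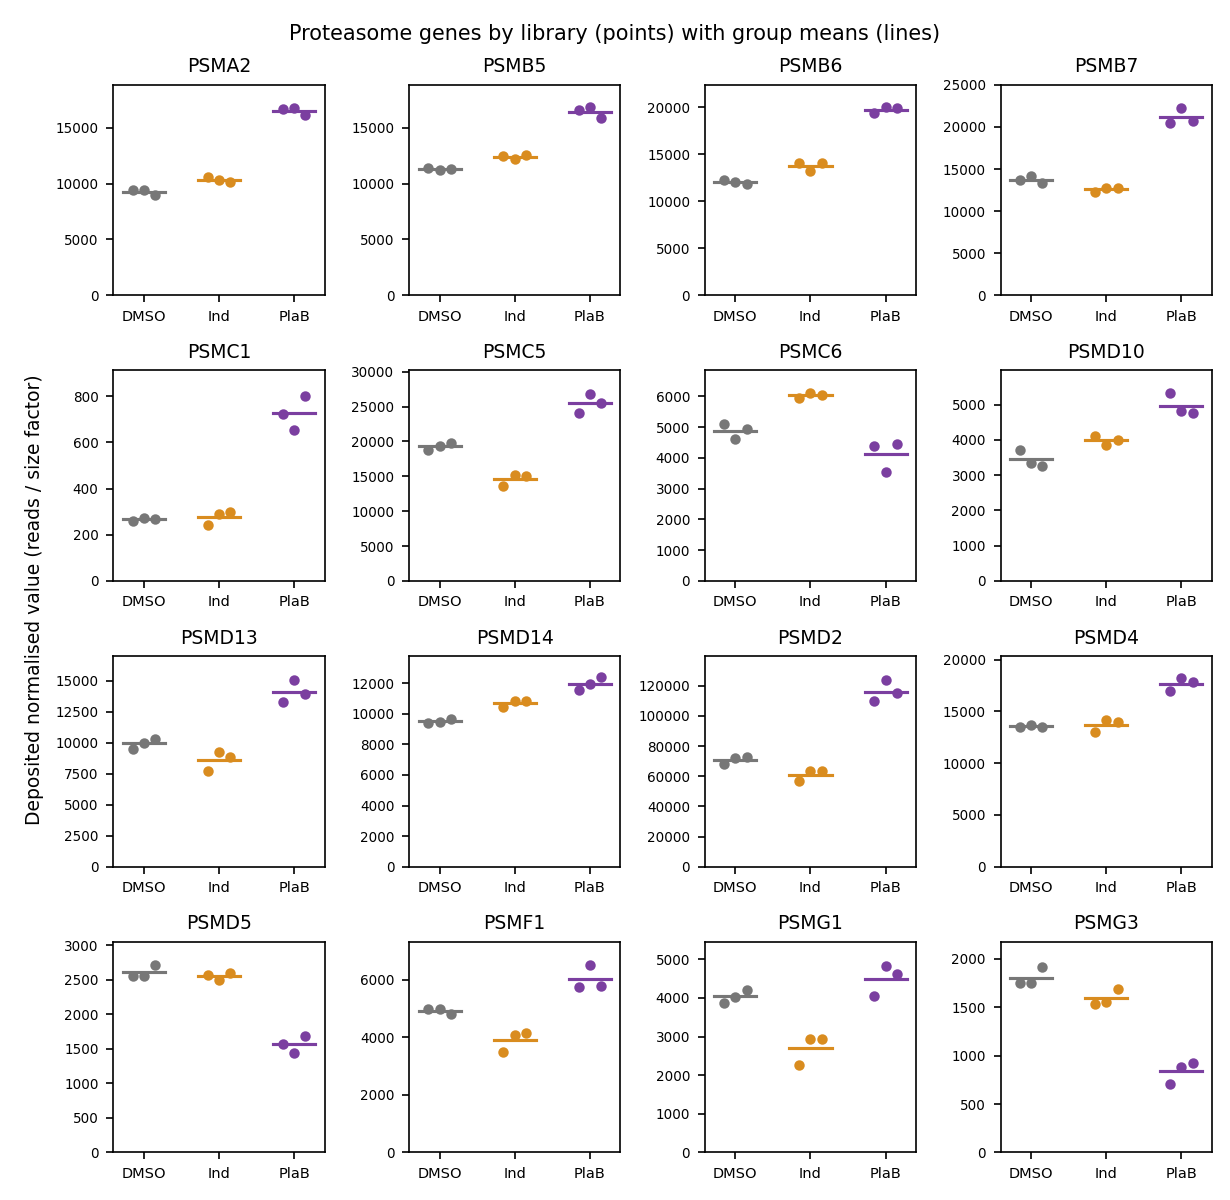
Deposited normalised values (vertical axes from 0, reads divided by the size factor) of 16 proteasome genes in the 3 libraries each of DMSO, indisulam (Ind) and pladienolide B (PlaB), with points for libraries and lines for group means. PSMA2, PSMB5, PSMB6 and PSMB7 are highest with pladienolide B, PSMD5 and PSMG3 are lowest there, and PSMC5, PSMF1 and PSMG1 are lowest with indisulam.

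How far these genes rose depended on how libraries were scaled. With every library brought to the same total, the median of all genes tested moved from -0.01 to -0.48 (log2), and of called genes 23.1% rather than 49.1% were higher. Of the 41 members 14 were then higher and 13 lower, with a median of 0.01, where 16.2% of all genes tested were higher and 53.9% lower. For the core, 10 of 15 genes remained higher and none was lower (median 0.15), PSMA2 at 0.36 and PSMB6 at 0.24 among them, while PSMB5 had 0.07 and was not called. Under the same scaling 2 of 5 PSMC genes were higher (PSMC1 and PSMC3) and PSMC6 was lower. PSMD2 and PSMD8 were higher, and 6 PSMD genes were lower: PSMD3, PSMD5, PSMD7, PSMD9, PSMD11 and PSMD14, which was at -0.14. PSMF1 turned to -0.19 and was lower, as were PSME3, PSME4 and 3 of 4 PSMG genes. The core genes PSMA3 (-0.04) and PSMA5 (-0.09) turned below 0 without a call, as did PSMC2 (-0.11), PSMC5 (-0.07), PSMD4 (-0.09), PSMD6 (-0.03) and PSMG4 (-0.24). Under TMM scaling 15 of 15 core genes rose, and with quantile normalisation 14 did. Quantile normalisation put PSMD3 (-0.19) and PSMD11 (-0.29) among the lower genes, and PSMD2 was then at -0.06 without a call. PSMA5, PSMC2, PSMC3, PSMC5, PSMD4, PSMD7, PSMD14 and PSMF1 also lost their calls with quantile normalisation. Of the PSMC genes only the row named PSMC1 was then still called higher, where 35.9% of all genes tested were higher and 32.2% lower.

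**Figure D3:**
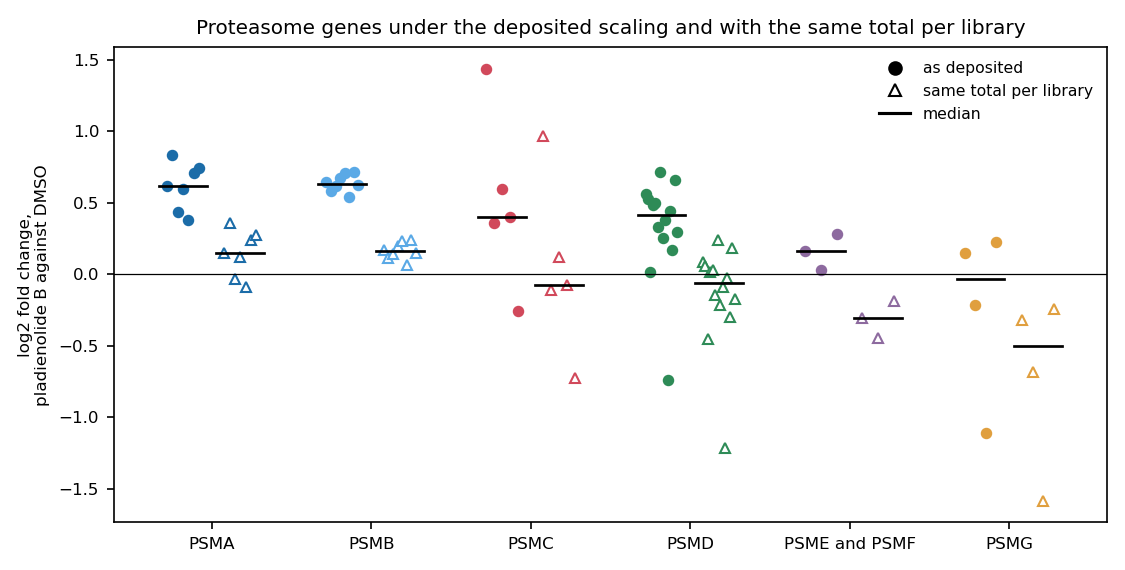
Log2 fold change of pladienolide B against DMSO (vertical axis) for each tested proteasome gene by class (horizontal axis), as deposited (filled circles) and with the same total per library (open triangles), with black lines for class medians. The median of the PSMB genes goes from 0.64 to 0.16 and that of the PSMD genes from 0.41 to -0.06, and PSMC6, PSMD5 and PSMG3 are below 0 in both.

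The difference between classes within a library does not depend on that library's scaling. The mean log2 value of the 15 core genes minus that of the 14 PSMD genes was 0.10 to 0.18 in DMSO, 0.15 to 0.19 with indisulam and 0.40 to 0.47 with pladienolide B. In this difference the pladienolide B libraries stood apart and the indisulam libraries overlapped DMSO. Without the chaperones PSMD5, PSMD9 and PSMD10 the difference was -0.36 to -0.27 in DMSO and -0.15 to -0.05 with pladienolide B. Against the 4 PSMC genes other than PSMC1 it was -0.39 to -0.35 in DMSO, -0.34 to -0.30 with indisulam and -0.07 to 0.04 with pladienolide B. Neither drug overlapped DMSO, but for indisulam the gap was narrow, with -0.3446 in indisulam replicate 2 beside -0.3488 in DMSO replicate 2. Of these 4 genes only PSMC5 had a negative log2 FC with indisulam (-0.41), while PSMC2, PSMC3 and PSMC6 had 0.06, 0.07 and 0.31. Against the 4 PSMG genes the core difference was 2.59 to 2.68 in DMSO, 2.92 to 3.06 with indisulam and 3.43 to 3.59 with pladienolide B. These differences hold the lengths of the genes, so that only their movement between libraries can be read.

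As a share of the library's total signal, the core made up 0.295 to 0.299% in DMSO, 0.298 to 0.306% with indisulam and 0.333 to 0.338% with pladienolide B. The share of the PSMC genes was 0.103 to 0.104%, 0.0951 to 0.0985% and 0.0993 to 0.104% in the same order. In this share PSMC1 counts only by its own row, which is uncertain as described further on, and PSMC4 is not included. The PSMC1 row had a mean of 267 in DMSO and the PSMC sum 63179, while the feature over its copy PSMC1P1, left out, had 19168. For the PSMD genes the share was 0.304 to 0.317%, 0.278 to 0.298% and 0.306 to 0.328%. The core share was thus higher in all 3 pladienolide B libraries than in DMSO, the PSMC and PSMD shares overlapped DMSO there, and both were below DMSO in all 3 indisulam libraries. Those lower shares rest on 1 gene each, as sums chosen after the values were seen show. Without PSMC5 the PSMC share was 0.0708 to 0.0732% in DMSO and 0.0735 to 0.0747% with indisulam. Without PSMD2 the PSMD share was 0.192 to 0.197% in DMSO, 0.188 to 0.198% with indisulam and 0.176 to 0.188% with pladienolide B, and there the pladienolide B libraries were below DMSO.

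**Figure D4:**
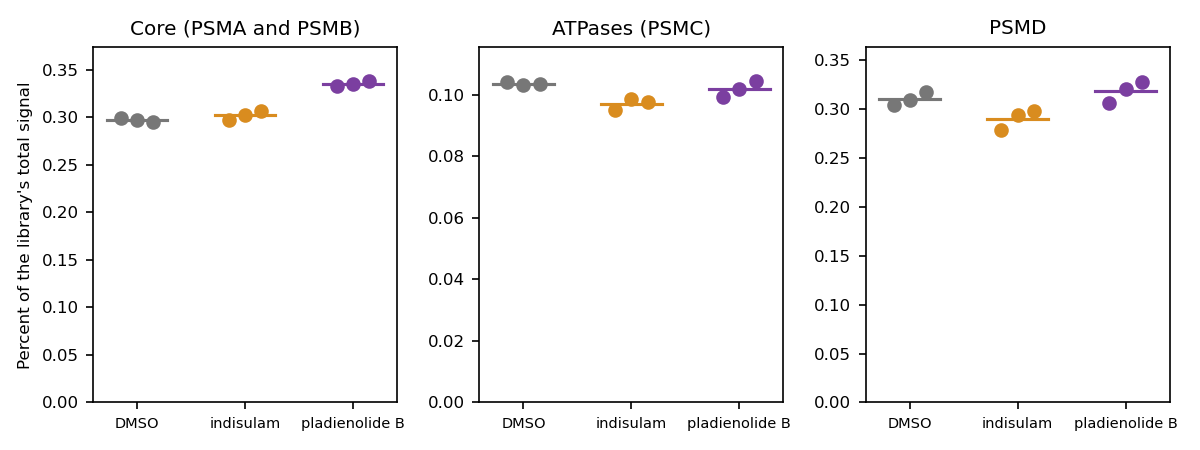
Summed signal of the core, PSMC and PSMD genes as a percent of each library's total (vertical axes from 0), for the 3 libraries of each group (points) with group means (lines). The core share is 0.333 to 0.338% with pladienolide B against 0.295 to 0.299% in DMSO, and the PSMD share overlaps between these groups.

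Indisulam gave small changes in both directions. Of the 41 tested members 7 rose and 7 fell, where 14.5% of all genes tested rose and 12.4% fell, and the median log2 FC was 0.04 against 0.05 for all genes tested. The genes that rose were PSMA2, PSMB3, PSMB6, PSMC6, PSMD6, PSMD10 and PSMD14, by log2 FC of 0.16 to 0.31. Those that fell were PSMC5, PSMD2, PSMD13, PSME3, PSMF1, PSMG1 and PSMG4, by -0.21 to -0.59. As deposited no core gene was called lower, and 3 of 15 rose. None of the 7 PSME, PSMF and PSMG genes rose and 4 fell. All 3 indisulam libraries were above all 3 of DMSO in 4608 of the 16846 genes tested and below in 3544.

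The largest falls with indisulam were among the assembly chaperones. PSMG1, which forms a chaperone of the alpha ring with PSMG2, had 3862, 4033 and 4213 in DMSO and 2266, 2929 and 2925 with indisulam. The groups did not overlap and PSMG1 fell to 0.671 of DMSO (log2 FC -0.59, SE 0.10, adjusted p = 0.00075). PSMG4, the partner of PSMG3, had 346.4 to 394.6 in DMSO and 237.2 to 270.7 with indisulam and fell by 0.55 on the log2 scale (SE 0.12, adjusted p = 0.0049). PSMG2 and PSMG3 had log2 FC of 0.11 and -0.18 and did not pass the test.

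PSMC5, an ATPase, had 18772, 19335 and 19749 in DMSO and 13538, 15133 and 14987 with indisulam. It fell to 0.755 of DMSO (log2 FC -0.41, SE 0.06, adjusted p = 0.00027). PSMC6 moved against it, from 5089, 4613 and 4952 to 5961, 6098 and 6045 (log2 FC 0.31, SE 0.08, adjusted p = 0.014). Both ATPases stood apart from DMSO in every library, one below and one above.

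PSMF1 had 3490, 4094 and 4154 with indisulam, below all DMSO libraries (log2 FC -0.34, SE 0.08, adjusted p = 0.0050). PSMD13, a lid subunit, went from 9519, 10012 and 10299 to 7703, 9229 and 8823 (log2 FC -0.22, adjusted p = 0.042), and PSMD2 had 56793, 63128 and 63414 (log2 FC -0.21, adjusted p = 0.020). In each of these 3 genes indisulam replicate 1 was the lowest library. Without it PSMD13 and PSMD2 were no longer called, and PSMF1 was. PSMD2 also lost its call without DMSO replicate 2 or 3, and PSMD13 without any DMSO library or indisulam replicate 3.

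Of the proteolytic subunits only PSMB6 passed the test with indisulam, at 14104, 13230 and 14021 against 11805 to 12233 in DMSO (log2 FC 0.19, SE 0.05, adjusted p = 0.011). PSMB5 had 12450, 12175 and 12595, above its DMSO values, with log2 FC of 0.13 (adjusted p = 0.059). PSMB7 had 12244, 12800 and 12729, below its DMSO values, with log2 FC of -0.12 (adjusted p = 0.10). Under TMM scaling, edgeR, quantile normalisation and the same total per library PSMB7 was called lower, at -0.17 to -0.18 (adjusted p = 0.0072 to 0.032 by limma or edgeR). PSMD14 had 10458, 10851 and 10869 (log2 FC 0.17, adjusted p = 0.023), PSMD10 had 4121, 3865 and 3985 (0.21, adjusted p = 0.037) and PSMA2 had 10562, 10356 and 10140 (0.16, adjusted p = 0.032). PSMD4 had 13057, 14199 and 13934, which overlapped DMSO (log2 FC 0.02).

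With the same total per library PSMB6 was the 1 rising gene still called, and with TMM scaling PSMB6 and PSMC6 were. PSMB6 lost its call without indisulam replicate 3 and PSMC6 without DMSO replicate 2. The falls of PSMC5, PSMF1, PSMG1 and PSMG4 were called under all 21 alternatives run. Leaving out any single DMSO or indisulam library left 1 to 4 members higher and 4 to 7 lower. Of all genes tested 9.29 to 10.4% were then higher and 8.84 to 10.2% lower. Only 1 member was called higher when DMSO replicate 2 or indisulam replicate 3 was left out.

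The drugs were also compared with each other, at their different times. Of the 41 members 34 were higher with pladienolide B than with indisulam and 4 were lower, where 34.7% of all genes tested were higher and 35.6% lower. The lower genes were PSMC6 (log2 FC -0.56), PSMD5 (-0.71), PSMG2 (-0.33) and PSMG3 (-0.93). The largest differences upward, besides PSMC1, were those of PSMD2 (0.93) and PSMC5 (0.81). PSMD11, PSMD7 and PSME4 did not pass the test, and PSMD14 was 1.12-fold higher (log2 FC 0.16, adjusted p = 0.014). With the same total per library 18 were higher and 10 lower, where 17.9% of all genes tested were higher and 50.4% lower, and PSMD14 was then lower (log2 FC -0.26). This comparison and the comparisons with DMSO share libraries, so they are not independent of each other.

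As deposited, the ATPases PSMC5 and PSMC6 ordered the 3 groups in opposite ways, with no overlap between any groups. PSMC6 was highest with indisulam and lowest with pladienolide B (adjusted p = 3.0e-05 between the drugs). PSMC5 was lowest with indisulam and highest with pladienolide B (adjusted p = 3.8e-08 between the drugs). With the same total per library PSMC5 was not called with pladienolide B against DMSO, and PSMC6 was not called with indisulam. Among the other members with values by library, PSMB7, PSMD2, PSMD13 and PSMF1 were lowest with indisulam and highest with pladienolide B as deposited, with no overlap between groups. With the same total PSMF1 was instead called lower with pladienolide B than in DMSO (-0.19). With quantile normalisation PSMD2 was at -0.06 against DMSO, without a call. Of the 16846 genes tested, all 3 pladienolide B libraries were above all 3 of indisulam in 6003 and below in 6099.

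The row named PSMC1 is described apart. PSMC1 encodes an ATPase of the same ring, and its row (GSHG0030121, chr14:90256544-90275409, hg38) had 258, 274 and 268 in DMSO, 241.8, 289.9 and 296.8 with indisulam and 723.4, 655.2 and 801.6 with pladienolide B. It rose 2.73-fold with pladienolide B (log2 FC 1.44, SE 0.12, adjusted p = 1.5e-07). Rows with neighbouring identifiers lie on chromosome 3, and the row before it, without a symbol (GSHG0030120, chr3:68635698-68637033), covers the processed pseudogene PSMC1P1, an intronless copy of PSMC1. That feature had 19165, 19288 and 19051 in DMSO, 20322, 21800 and 22234 with indisulam and 25395, 26943 and 26908 with pladienolide B. Per kilobase, the feature held 14347 in DMSO over its own length and PSMC1 60.0 over its annotated transcript of 4448 bases. The feature rose by a log2 FC of 0.46 with pladienolide B (SE 0.05, adjusted p = 2.3e-06) and 0.16 with indisulam (adjusted p = 0.034). Reads of a gene and its near-identical copy can be split by counting, so the PSMC1 value is uncertain, and which of them gave the reads of the feature was not tested. PSMC1 also overlaps NRDE2, whose mean over the 9 libraries was 847 beside 423 for PSMC1.

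**Figure D5:**
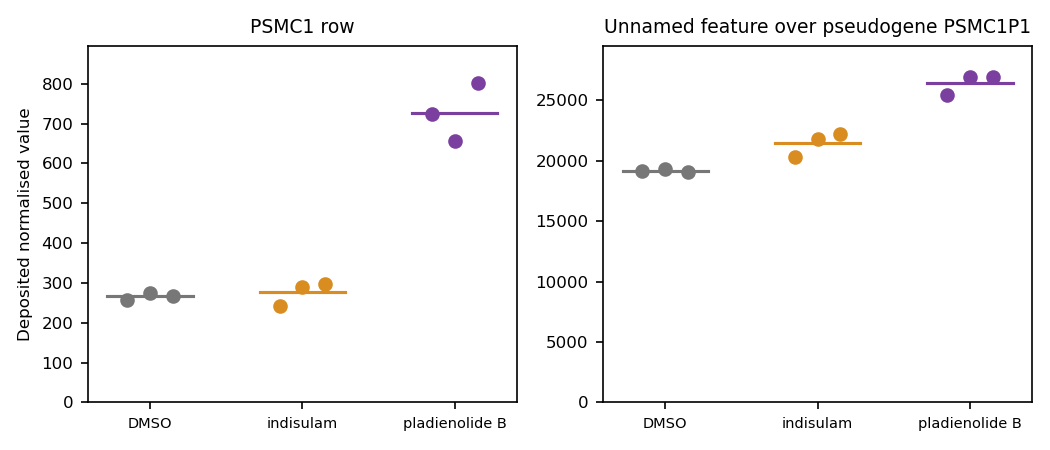
Deposited normalised values (vertical axes from 0, with different scales) of the PSMC1 row and of the unnamed feature that covers the pseudogene PSMC1P1, in the 3 libraries of each group (points) with group means (lines). PSMC1 is at 801.6 or less in every library while the feature lies between 19051 and 26943, and both are highest with pladienolide B.

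Other members overlap features too. Some overlap was found for 20 of the 43 genes, and no source used here states how strand was handled in counting. The PSMB5 row lies wholly within the feature of DAD1 (mean 11208 against 13394 for PSMB5), the PSMD2 row within that of EIF2B5 (mean 5612 against 82678), and PSMB7 shares 5714 bases with LOC100129034 (mean 6253 against 15824). PSMC5 shares 241 bases with FTSJ3 and 806 with SMARCD2. PSMG4 (mean 355) overlaps 4 features, among them SLC22A23 (mean 146, 23012 shared bases) and LOC100422781 (mean 85.6). PSMG2 (mean 2623) shares 40822 bases with CEP76 (mean 770). Values of such genes are uncertain to the extent that shared reads were counted.

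The members differ widely in gene structure, by the GENCODE annotation of their main transcripts. Among the 41 tested members PSMG3 has the fewest introns, 1, and PSME4 the most, 46, while PSMB11, which was not tested, has 0. PSMB5 has 2 introns, PSMB6 has 5, PSMD5 has 9 and PSMC6 has 13. Over the 41 tested members, Spearman's rho between the number of introns and the log2 FC was -0.15 for pladienolide B and -0.16 for indisulam, and with the span of the gene it was -0.31 and -0.14, given as a description across genes measured in the same libraries. The tested gene with the fewest introns, PSMG3, had the largest fall with pladienolide B, and PSME4 had a log2 FC of 0.03. PSMB5 and PSMG4, with 2 introns each, had 0.54 and 0.23.

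Proteasome genes outside the symbol rule, taken from a list of 14, divided with pladienolide B into 5 that rose and 5 that fell, near the 34.3% and 35.5% of all genes tested. SEM1, the smallest lid subunit, had the largest rise (log2 FC 0.87, adjusted p = 4.0e-09). ZFAND2A, a stress-induced protein that binds the proteasome, had the largest fall (-0.53). Chosen after their values were seen, POMP, which completes the core, had 7031, 6915 and 6390 in DMSO and 12046, 11939 and 11965 with pladienolide B (log2 FC 0.82). ADRM1, a ubiquitin receptor of the base, had 22465, 23868 and 24476 in DMSO and 15043, 17181 and 17990 after it (-0.50). Of the 14, 3 were higher with the same total per library, SEM1 at 0.39 and POMP at 0.35 among them, and 11 were lower, where 16.2% and 53.9% of all genes tested were. With indisulam 4 of the 14 rose and 2 fell, where 14.5% and 12.4% of all genes tested did. AKIRIN1, a relative of the nuclear import factor of the proteasome AKIRIN2, had the largest rise (0.34). PAAF1, a chaperone of the base, had the largest fall. PAAF1 had 997.8, 878.9 and 962.9 in DMSO and 545, 578.9 and 514.1 with indisulam (log2 FC -0.79, SE 0.09, adjusted p = 4.0e-05).

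NFE2L1, the transcription factor that activates proteasome genes when the proteasome is impaired, had 4403, 4580 and 4284 in DMSO. It had 4953, 5245 and 4992 with indisulam (log2 FC 0.20, adjusted p = 0.080) and 6170, 7016 and 5516 with pladienolide B (0.49, SE 0.08, adjusted p = 6.9e-05). All treated libraries were above DMSO, and only the pladienolide B change passed the test. That change was 0.02 with the same total per library, and it was not called (adjusted p = 0.84). Of 13 tested genes of its pathway 5 rose and 6 fell with pladienolide B, where 34.3% and 35.5% of all genes tested did, with its relative NFE2L3 rising most (1.05) and BTRC, a subunit of a ubiquitin ligase, falling most (-2.33, from 1229 to 1359 in DMSO to 246.3 to 265.9). With indisulam 4 rose and 1 fell, where 14.5% and 12.4% of all genes tested did. MAFF, a small MAF partner of these factors, rose most (0.62) and NGLY1, the glycosidase that processes NFE2L1, fell from 2597, 2445 and 2437 to 1596, 1511 and 1470 (log2 FC -0.71, adjusted p = 2.3e-05).

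Of 13 genes of VCP, the ATPase that extracts ubiquitinated proteins, and its cofactors, 6 rose and 5 fell with pladienolide B (34.3% and 35.5% of all genes tested), from YOD1 at 1.87, a deubiquitinase, to NPLOC4 at -0.96, an adaptor. With indisulam 3 rose and 1 fell (14.5% and 12.4% of all genes tested), with PLAA at 0.50 and the ubiquitin ligase UBE4B at -0.48. Of 10 reported shuttle factors, ubiquitin genes and activating enzymes 7 rose with pladienolide B, led by the shuttle UBQLN2 (0.94). With indisulam 3 rose and 2 fell, against the same 14.5% and 12.4%. UBQLN2 again had the largest rise (0.42) and the activating enzyme UBA6 the largest fall (-0.61).

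Scaled to the same total per library, the pladienolide B counts were 2 higher and 9 lower in the NFE2L1 pathway, 2 higher and 9 lower of VCP and its cofactors, and 4 higher and 4 lower of the reported shuttle and ubiquitin genes, where 16.2% of all genes tested were higher and 53.9% lower. NFE2L3, YOD1 and UBQLN2 were higher and BTRC and NPLOC4 lower under both scalings.

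Other large complexes were set beside the proteasome. All 8 subunits of the CCT chaperonin, another ring-shaped complex, rose with pladienolide B (median 0.44, CCT7 most at 0.64), and 7 of 9 subunits of the COP9 signalosome, a relative of the lid, rose (median 0.42, COPS6 most at 0.84). With the same total per library the counts were 1 higher and 2 lower of 8 for CCT and 1 higher and 2 lower of 9 for COP9, while 10 of 15 core genes were higher. Of all genes tested 34.3% rose and 35.5% fell as deposited, and 16.2% were higher and 53.9% lower with the same total. The difference between these complexes was not tested. With indisulam CCT6A (-0.34) was the 1 CCT gene called, and of COP9 COPS2 (0.32) had the largest rise and COPS3 (-0.37) was the 1 gene that fell. Of all genes tested 14.5% rose and 12.4% fell with indisulam.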

How the data were processed

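Polyadenylated RNA of 9 MDA-MB-231 libraries was sequenced, 3 per group. The deposited table holds a signal per feature, read counts that the authors divided by 1 size factor per library with DESeq2, per the labels and the table's name. The submitters' processing notes also name FastQC, Picard, SAMtools, STAR 2.7.5a and hg38. For the counting tool and its strand option, the entry is "not given in the sources used here". All values (100% within 0.01) were whole multiples of 1 read, so reads were recovered (59312100 to 83910831 per library), and 3 reads are worth 2.48 to 3.87. Such limits cover counting error only.

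Groups were compared by limma 3.58.1 in R 4.3.3, on log2(value + 1), with all 9 libraries in 1 fit with a mean trend, two-sided, with Benjamini-Hochberg adjustment at 0.05 over 16846 genes with a mean of at least 10. The scale understates changes of low genes. On simulated data the script was checked. Alternatives were other pseudocounts (0.5, 10), filters (none, 50) and scalings, edgeR 4.0.16 and DESeq2 1.42.0 on the recovered reads, fewer groups, protein-coding symbols, a replicate block and leaving out each library. No libraries agreed within sampling noise (lowest chi-square per gene within a group 8.83). Values by library are given for PSMB5, PSMB6, PSMB7, PSMD14, PSMD4 and, per class and drug, the called gene with the largest change in each direction. NFE2L1 is named whatever its values, and of every other list the called genes with the largest changes. Members, lists and tests were chosen with earlier results of these data known. DDI2 and SQSTM1 of the lists matched no symbol. The lists are given without 2 genes that are not reported here.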

Additional observations from a re-analysis of the deposited data

How the results depend on the processing

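The counts with pladienolide B depended on scaling and those with indisulam on most choices. With indisulam, 7 members higher became 4 with no filter, 2 with TMM scaling, 2 with edgeR, 1 where all libraries had the same total and 12 with a replicate block. Of all genes tested, 14.5% were higher in the main test and 7.48%, 10.9%, 11.4%, 10.2% and 21.1% in the same order. Leaving out a library gave 1 to 9 higher and 4 to 7 lower, where 9.29 to 17.7% of all genes tested were higher and 8.84 to 14.2% lower. With pladienolide B, 32 higher and 4 lower became 14 and 13 with the same total, and 32 to 33 and 3 to 4 without a library. Between the drugs, 34 higher and 4 lower became 18 and 10 with the same total, and 8 were lower with quantile normalisation (34 to 35 and 4 without a library). With the same total, 16.2% of all genes tested were higher and 53.9% lower with pladienolide B, and 17.9% and 50.4% between the drugs. With quantile normalisation 32.1% were lower between the drugs. The other alternatives stayed within 1.5 times the counts, though single members lost their calls there, as given above for pladienolide B with quantile normalisation.

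Against DMSO, 16 of the 41 pladienolide B changes turned from above to below 0 with the same total (9 called lower) and 7 with quantile normalisation (2 called lower). Between the drugs 11 (5 called lower) and 5 (3 called lower) did. Among genes with values by library, those against DMSO with the same total were -0.0737 for PSMC5, -0.143 for PSMD14, -0.0917 for PSMD4, -0.187 for PSMF1 and -0.32 for PSMG1 (log2). With quantile normalisation they were -0.102 for PSMC5, -0.0633 for PSMD2 and -0.0172 for PSMD4. Between the drugs they were -0.0107 for PSMB5, -0.101 for PSMD10, -0.261 for PSMD14 and -0.0535 for PSMD4 with the same total, and -0.14 for PSMD14 with quantile normalisation. The cause was not tested.

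Replicate numbers were shared between groups. Residuals of same-numbered libraries correlated by 0.0027 to 0.13, all above 0, and those of other-numbered libraries by -0.12 to 0.045. Not all same-numbered values were above 0.1, and DMSO replicate 2 correlated better with pladienolide B replicate 3 than 2. The labels state no pairs, and the numbers were not taken as pairs in the main test. With the replicate block 12 members rose and 8 fell with indisulam, 34 and 4 with pladienolide B, and 35 and 4 between the drugs. The shares of all genes tested were then 21.1% and 16.3%, 36.1% and 37.1%, and 36.4% and 37.2%. Depth limits PSMC1 and PSMG4 most, with values of 237.2 to 801.6.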
